A study of Rattus norvegicus with 50 samples.

Results

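Red cell membrane genes were followed in the blood of rats over 28 days. The set was defined by name and holds 9 genes: Ank1, Sptb, Epb41, Epb42, Slc4a1, Gypc, Rhag, Kel and Add2. A gene was taken where a probe set carried its symbol and no other. This gave 5 genes of the 9, on 6 of the 36685 probe sets of the array. Rhag had 2 probe sets with identical values on all 50 arrays, which were counted once. Ank1, Sptb, Epb41 and Add2 were not analysed here. The 5 measured genes encode transmembrane proteins and protein 4.2, while ankyrin, beta spectrin, protein 4.1 and beta adducin are outside the values below.

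Whole blood was drawn from the tail vein of 10 male Wistar rats. Of these, 6 rats received monosodium iodoacetate (MIA), an inhibitor of glycolysis that damages cartilage, in the right knee joint, and 4 naive rats were left uninjected, so that no rat received vehicle alone. Each rat was bled at days 0, 2, 14, 21 and 28, which gave 50 arrays. The ages of the rats were not given in the sources used here, and the methods state 6 samples per group where the labels give 6 and 4. MIA day 21 replicate 4 was left out: its log2 signals had a standard deviation (SD) of 1.00, against 1.80 to 1.99 on the other 49 arrays, and its mean correlation with the others was 0.243, against 0.920 to 0.954. On that array Slc4a1 read 2.80 and Kel 2.04. All values below are log2 signals or differences between them, from 49 arrays unless stated.

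The skeleton of the red cell is a spectrin and actin mesh under the membrane. It is tied to the lipid bilayer through an ankyrin complex around band 3 and through a junctional complex that holds protein 4.1 and glycophorin C. Inherited defects of these proteins cause spherocytosis or elliptocytosis. Mature red cells of mammals have no nucleus, and the messenger RNA they still carry was made by their precursors and is densest in reticulocytes, the youngest cells in the blood. GATA1 and KLF1 are transcription factors of the red cell lineage, and GATA1 binds short sites built on the letters GATA.

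The stretches before the start sites were examined because the 5 genes moved together over the days. Promoters of 4 of the 5 genes were found in the RefSeq table of GRCr8. The letters GATA, with A or T before them and A or G after them, were searched on both strands in the 250 bases before each start of the table. The stretches of Epb42, Gypc, Kel and Rhag each held at least 1 match, and so did 27.0% of 33469 promoters in the table. The letters CCNCNCCC, a pattern of KLF1 sites, were found only in Gypc, against 42.8% of all promoters. The 150 bases before the start of 3 genes are shown, 5′ to 3′ on the strand of the gene, with the matches in capitals.
Rhag (chr9:27594391-27594540, minus strand): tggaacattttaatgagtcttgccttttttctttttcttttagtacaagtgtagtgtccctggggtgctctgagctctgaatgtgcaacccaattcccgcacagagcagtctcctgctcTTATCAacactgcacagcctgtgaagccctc
Epb42 (chr3:128451684-128451833, minus strand): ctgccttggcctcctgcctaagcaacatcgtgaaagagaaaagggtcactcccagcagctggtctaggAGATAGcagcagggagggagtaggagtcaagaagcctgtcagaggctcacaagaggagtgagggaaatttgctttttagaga
Gypc (chr18:24467593-24467742, minus strand): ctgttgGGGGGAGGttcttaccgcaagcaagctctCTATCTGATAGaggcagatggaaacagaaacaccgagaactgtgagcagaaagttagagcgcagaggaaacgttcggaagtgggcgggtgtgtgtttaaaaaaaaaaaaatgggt
The match began 31 bases before the start in Rhag and 82 bases before it in Epb42. Gypc had 2 overlapping GATA matches that began 115 and 110 bases before the start, and its other capitals mark the CCNCNCCC match read from the opposite strand. In Kel the match began 116 bases before the start used in the promoter table. The Kel stretch, chr4:71551774-71552023, lies inside the annotated gene (chr4:71534882-71552297, minus strand), so it is not upstream of the whole gene and is not shown. The other 3 stretches lie directly upstream of the start of the annotated gene. A match describes the letters only, and binding was not measured.

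All 5 genes had lower mean levels in the blood at days 21 and 28 than at day 0, in MIA and in naive rats. In single rats the values were lower too, except Rhag in 1 naive rat at day 21. At day 28 each gene was lower than at day 0 in 10 of 10 rats. The main model, which compared group means, called 1 or 2 of the 5 falls at these days, where 0.294% to 4.58% of all probe sets were called lower. A model within rats called 5 of 5, where 1.51% to 5.42% were. Averaged with equal weight over the treatments, the linear signal at day 28 was lower by 25.4% for Slc4a1, 32.9% for Epb42, 36.2% for Rhag, 39.7% for Kel and 38.9% for Gypc. At day 2 no such fall was called. In whole blood, fewer cells of a type and less RNA per cell cannot be told apart.

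**Figure D1:**
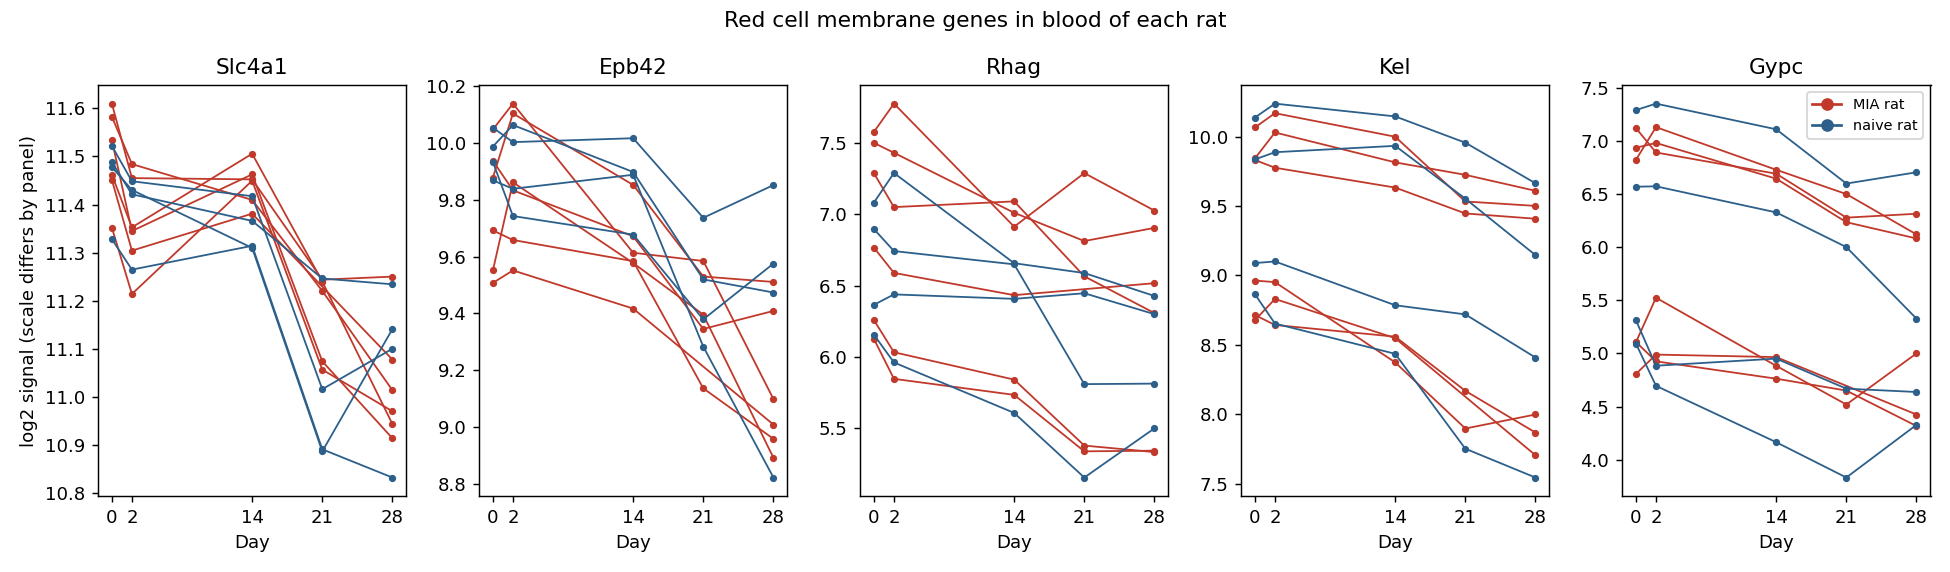
Log2 signal (y axis, own scale per panel) of the 5 genes against the day of bleeding, with a line per rat (6 MIA rats in red, 4 naive rats in blue). A point is an array, MIA replicate 4 has no point at day 21, and Kel and Gypc run at separate heights in different rats and end lower at day 28 than at day 0 in each.

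Changes were estimated with 2 models, both fitted with limma. The main model compared group means of treatment and day. It held no term for the rat, so repeated bleeds of a rat were treated as independent. The other model gave each rat its own level, so that a change was read within rats. The second was added after the levels of single rats had been seen. The threshold for a call was 0.05 after Benjamini-Hochberg adjustment over all 36685 probe sets.

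Slc4a1 encodes band 3, the chloride and bicarbonate exchanger to which ankyrin binds. In MIA rats the lowest, median and highest levels were 11.35, 11.50 and 11.61 at day 0. At day 28 they were 10.91, 10.99 and 11.25. The ranges of the 6 rats did not overlap between these days. In naive rats replicates 1 to 4 read 11.48, 11.49, 11.52 and 11.33 at day 0 and 11.14, 11.23, 11.10 and 10.83 at day 28, again without overlap. The share of all probe sets without overlap between these days was not counted, here or below. Between group means, Slc4a1 fell by 0.47 in MIA rats (standard error 0.07, adjusted p = 0.000175 from limma) and by 0.38 in naive rats (standard error 0.09, adjusted p = 0.0186 from limma). At day 21 it fell by 0.33 in MIA rats (adjusted p = 0.0300) and by 0.44 in naive rats (adjusted p = 0.0253).

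Slc4a1 had small spread within each group. In MIA rats its means ± SD were 11.50 ± 0.10 at day 0, 11.36 ± 0.10 at day 2, 11.44 ± 0.04 at day 14, 11.17 ± 0.09 at day 21 (n = 5) and 11.03 ± 0.12 at day 28 (n = 6 otherwise). In naive rats they were 11.45 ± 0.09, 11.39 ± 0.09, 11.35 ± 0.05, 11.01 ± 0.17 and 11.08 ± 0.17 at the same days (n = 4). The widest step lay between days 14 and 21, and days 21 and 28 differed by less than 1 SD in naive rats and by more than 1 SD in MIA rats. At day 2, Slc4a1 was below its day 0 level in 10 of 10 rats, by 0.05 to 0.19, but was not called (adjusted p = 0.906 within rats, averaged over the treatments).

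Epb42 encodes protein 4.2, which lies on the inner face of the membrane and binds band 3 and ankyrin. Its levels in MIA rats were 9.51, 9.79 and 10.05 (lowest, median and highest) at day 0 and 8.89, 9.05 and 9.51 at day 28. The highest rat at day 28 was level with the lowest rat at day 0, so the ranges just met. Naive replicates 1 to 4 read 9.93, 10.05, 9.87 and 9.99 at day 0 and 9.58, 9.85, 8.82 and 9.47 at day 28, with no overlap and with replicate 3 lowest. The group mean fell by 0.62 in MIA rats (standard error 0.13, adjusted p = 0.00430 from limma). In naive rats the difference was −0.53 (standard error 0.16) and was not called (adjusted p = 0.0659).

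Through the days, Epb42 in MIA rats had means ± SD of 9.77 ± 0.22, 9.86 ± 0.23, 9.62 ± 0.14, 9.40 ± 0.18 and 9.15 ± 0.25 (days 0, 2, 14, 21 and 28). In naive rats these were 9.96 ± 0.08, 9.91 ± 0.15, 9.87 ± 0.14, 9.48 ± 0.20 and 9.43 ± 0.44. The ranges of days 0, 2 and 14 overlapped in both groups, and days 21 and 28 had the lowest means.

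Rhag encodes the Rh-associated glycoprotein, a channel for ammonia that carries the Rh proteins to the membrane. In MIA rats it read 6.12, 7.03 and 7.58 (lowest, median and highest) at day 0 and 5.33, 6.41 and 7.03 at day 28. Naive replicates 1 to 4 read 7.08, 6.36, 6.90 and 6.15 at day 0 and 6.43, 6.30, 5.81 and 5.50 at day 28. The ranges of the days overlapped widely, although each rat was lower at day 28 than at its own day 0. At day 21, Rhag was lower in 8 of 9 rats, and naive replicate 2 was higher by 0.08.

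Rhag was the member with the smallest p at day 14 within rats, averaged over the treatments. It was lower than at day 0 in 6 of 6 MIA rats and 3 of 4 naive rats, by 0.36 on average within rats (standard error 0.10), but did not pass (adjusted p = 0.110). Its means ± SD ran from 6.92 ± 0.63 at day 0 to 6.79 ± 0.77, 6.50 ± 0.60, 6.28 ± 0.88 and 6.24 ± 0.75 in MIA rats. In naive rats they ran from 6.62 ± 0.44 to 6.61 ± 0.56, 6.33 ± 0.50, 6.00 ± 0.66 and 6.01 ± 0.43. Neighbouring days differed by less than 1 SD throughout. These spreads are mostly differences between rats, which hold 91.6% of the variance after group means were removed.

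Kel encodes the Kell blood group protein, an enzyme of the membrane that cleaves endothelins. In MIA rats replicates 1 to 3 read 9.84, 9.83 and 10.07 at day 0 and 9.61, 9.41 and 9.50 at day 28. Replicates 4 to 6 read 8.68, 8.96 and 8.71 at day 0 and 7.70, 8.00 and 7.87 at day 28. The first 3 rats were above the other 3 on both days. Naive replicates 1 to 4 read 10.14, 9.09, 9.84 and 8.86 at day 0 and 9.66, 8.41, 9.15 and 7.54 at day 28. Kel thus fell in every rat, and the ranges of the days overlapped.

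The means ± SD of Kel in MIA rats were 9.35 ± 0.63, 9.40 ± 0.67, 9.15 ± 0.74, 8.95 ± 0.85 and 8.68 ± 0.91 at days 0, 2, 14, 21 and 28. In naive rats they were 9.48 ± 0.60, 9.47 ± 0.72, 9.32 ± 0.84, 8.99 ± 0.98 and 8.69 ± 0.92. No neighbouring days differed beyond these spreads, which are mostly differences between rats.

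Gypc encodes glycophorin C, a sialoglycoprotein that holds protein 4.1 at the membrane. In MIA rats replicates 1 to 3 read 6.82, 6.94 and 7.12 at day 0 and 6.12, 6.08 and 6.31 at day 28. Replicates 4 to 6 read 4.81, 5.11 and 5.11 at day 0 and 4.43, 5.00 and 4.32 at day 28. The same 3 MIA rats as for Kel stood high. Naive replicates 1 to 4 read 7.29, 5.31, 6.57 and 5.09 at day 0 and 6.70, 4.64, 5.33 and 4.33 at day 28. Replicates 1 and 3 were the high naive rats for both genes.

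For Gypc the means ± SD of MIA rats were 5.98 ± 1.08, 6.07 ± 1.04, 5.78 ± 1.00, 5.64 ± 0.97 and 5.38 ± 0.91 over the 5 days. Naive rats had 6.07 ± 1.04, 5.88 ± 1.30, 5.64 ± 1.33, 5.28 ± 1.25 and 5.25 ± 1.06. The order of the days was the same in both groups except at day 2, which lay above day 0 in MIA rats by less than the spread. This spread, too, is mostly between rats.

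Between group means, few members were called. At MIA day 21, 1 of 5 members was called lower (Slc4a1), where 0.537% of all probe sets were. At MIA day 28 it was 2 of 5 (Slc4a1 and Epb42) against 1.87%. In naive rats it was Slc4a1 alone, 1 of 5, at day 21 against 0.294% and at day 28 against 0.886%. Averaged over the treatments, Slc4a1 and Epb42 were called at day 21 against a background of 3.51%, at day 28 against 4.58%, and at day 28 relative to day 14 against 0.502%. Rhag, Kel and Gypc were called in none of these, with unadjusted p under 0.05 for Rhag at days 21 and 28 and for Kel at day 28 over all rats. At MIA day 21 the count was 0 of 5 when any of the 6 MIA rats or naive replicate 3 was left out, with a background of 0.0491% to 0.477%. In naive rats it was 0 of 5 without replicate 1, 3 or 4, against 0.00273% to 0.0382% at day 21 and 0.0354% to 0.474% at day 28. From day 14 to day 28 it was 1 of 5 without MIA replicate 6 or naive replicate 3 or 4, against 0.0654% to 0.292%. When all arrays were shifted to the same median, Slc4a1 was not called at MIA day 21 (adjusted p = 0.0816 from limma) or at naive day 21 (adjusted p = 0.0922 from limma).

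Within rats, all 5 members were called lower at day 21 and at day 28 in each treatment. The background was 1.85% and 3.18% of probe sets for MIA days 21 and 28, 1.51% and 2.16% for naive days 21 and 28, and 4.82% and 5.42% for the average of the treatments. At day 28 over all rats Slc4a1 fell by 0.42 (standard error 0.05), Epb42 by 0.58 (0.08), Rhag by 0.65 (0.10), Kel by 0.73 (0.09) and Gypc by 0.71 (0.10). The adjusted p-values from limma ran from 1.68e-07 for Kel to 1.42e-05 for Rhag. The median of the 5 members was −0.65. From day 14 to day 28, 4 of 5 members were called lower against 1.43%, and Rhag was not (−0.29, adjusted p = 0.110).

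These counts depended on single rats where a treatment was taken alone and from day 14 to day 28. Over all rats, the count from day 14 to day 28 was 3 of 5 without MIA replicate 2 or naive replicate 1 or 3, against 0.796% to 1.35%. Without MIA replicate 3, 2 of 5 members were called lower within rats at MIA day 21, where 0.878% of probe sets were, and without MIA replicate 2 or 5 it was 3 of 5 against 1.12% to 1.14%. Without MIA replicate 1 it was 4 of 5 at MIA day 21 against 1.41%. Without naive replicate 1, 3 or 4, it was 2 of 5 at naive day 21 against 0.619% to 0.840%. It was also 2 of 5 at naive day 21 when all arrays were shifted to the same median. Leaving out naive replicate 2 or MIA replicate 1, 2, 3, 4 or 6 gave 4 of 5 at naive day 21, against 1.28% to 1.47%. With all rats kept, Kel was close to the threshold at naive day 21 (adjusted p = 0.0483 from limma). Without naive replicate 3 it was 3 of 5 at naive day 28 against 0.859%, and without naive replicate 1 or 4 it was 4 of 5 against 1.42% to 1.57%. When any 1 rat was left out, it stayed at 5 of 5 at MIA day 28 against 1.65% to 3.29%, at day 21 over all rats against 3.34% to 5.23% and at day 28 over all rats against 4.03% to 5.80%. With the array of MIA day 21 replicate 4 included, the background was lower in each of these comparisons as well. Between group means, no member was then called, against 0.330% of probe sets at MIA day 21 and 0.646% at day 28 over all rats. Within rats, 2 of 5 members were called at MIA day 21 against 1.32%, 2 of 5 at day 21 over all rats against 1.92% and 1 of 5 at day 28 over all rats against 1.25%. It was 0 of 5 at MIA day 28 against 0.221%, at naive day 21 against 0.0109% and at naive day 28 against 0.0654%.

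**Figure D2:**
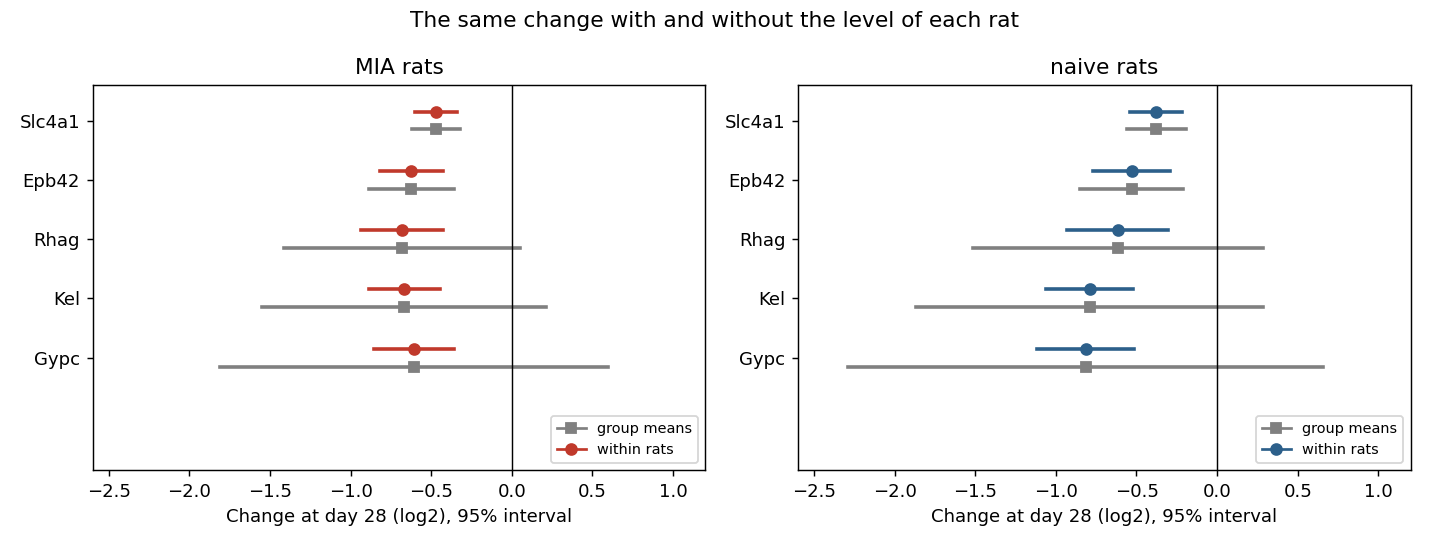
Change at day 28 against day 0 on the log2 scale (x axis) of each gene, with 95% intervals, in MIA rats (left) and naive rats (right). Grey squares compare group means and coloured circles are within rats: the estimates are equal, and for Gypc in MIA rats the interval of −1.81 to 0.60 narrows to −0.85 to −0.36.

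At days 2 and 14 no member was called. At day 2 the background was 0 in each treatment and over all rats in both models. For day 14, group means gave no lower probe set either, and within rats the background was 0.0164% in MIA rats, 0.00273% in naive rats and 0.153% over all rats. The number of members at an unadjusted p under 0.05 between group means was 0 of 5 at both days. Within rats it was 1 at MIA day 2 (Slc4a1), 1 at MIA day 14 (Rhag), 1 at naive day 14 (Gypc) and 3 at day 14 over all rats (Rhag, Kel and Gypc). From day 2 to day 14 no member was called against 0.0109% of probe sets between group means and 0.139% within rats, and 3 members had an unadjusted p under 0.05 within rats.

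**Figure D3:**
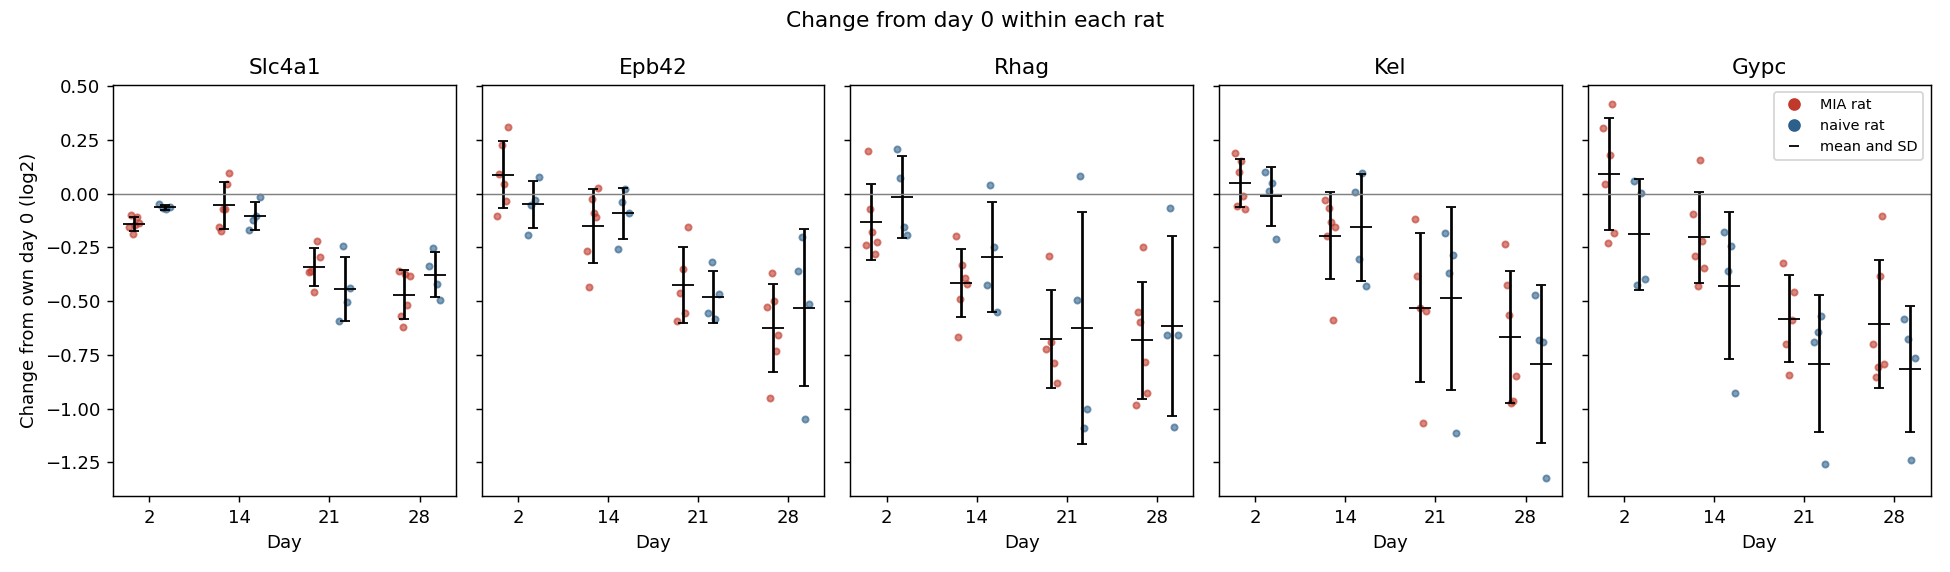
Change from the day 0 level of the same rat (y axis, log2) at days 2, 14, 21 and 28 for the 5 genes, with a point per rat and the mean and SD of 6 MIA rats (5 at day 21) in red and 4 naive rats in blue. At day 28 all points lie below 0, from −0.07 (Rhag) to −1.32 (Kel), and the treatments overlap in each panel.

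MIA and naive rats were compared to ask whether the injection changed the course. The change of naive rats was subtracted from that of MIA rats. No member was called for this difference at day 2, 14, 21 or 28, by limma in either model, and no probe set was called lower (0%). No member had an unadjusted p under 0.05 in these comparisons. Within rats at day 28, the difference between treatments was −0.09 for Slc4a1 with a 95% interval of −0.30 to 0.12. For Epb42 the interval was −0.40 to 0.22, for Rhag −0.47 to 0.34, for Kel −0.23 to 0.47 and for Gypc −0.18 to 0.60. For Gypc the upper bound was close to the fall of MIA rats itself, 0.61. At day 0, before injection, no member was called between MIA and naive rats by limma, nor any probe set lower (0%), and the smallest unadjusted p of the 5 members was 0.194 (Epb42).

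The rats differed in their levels of Gypc, Kel and Rhag throughout the study. After the means of treatment and day were removed, 96.8% of the remaining variance of Gypc lay between rats, and 7 of the 36685 probe sets had a higher share. The share was 95.6% for Kel, with 19 probe sets higher, and 91.6% for Rhag, with 53 higher. It was 61.6% for Epb42 and 57.3% for Slc4a1. The median of all probe sets was 22.2%.

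Gypc split the 10 rats into a high and a low set. MIA replicates 1 to 3 and naive replicates 1 and 3 had means over their days of 6.16 to 7.01. MIA replicates 4 to 6 and naive replicates 2 and 4 had means of 4.42 to 5.01. The gap of 1.15 between the sets was wider than the fall from day 0 to day 28. The highest array of the low set read 5.52 and the lowest of the high set 5.33, which was naive replicate 3 at day 28. The sets are a description of these values and were not tested.

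For Kel the same 5 rats were high. Their means ran from 9.62 to 10.03, those of the other 5 rats from 8.25 to 8.82, and no array of the low set (highest 9.10) reached the high set (lowest 9.15). In the labels the high rats carry animal numbers 5, 6, 7, 8 and 10, and the low rats 9 and 11 to 14. Cage, litter and day of processing are not in the labels, and their part was not tested.

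**Figure D4:**
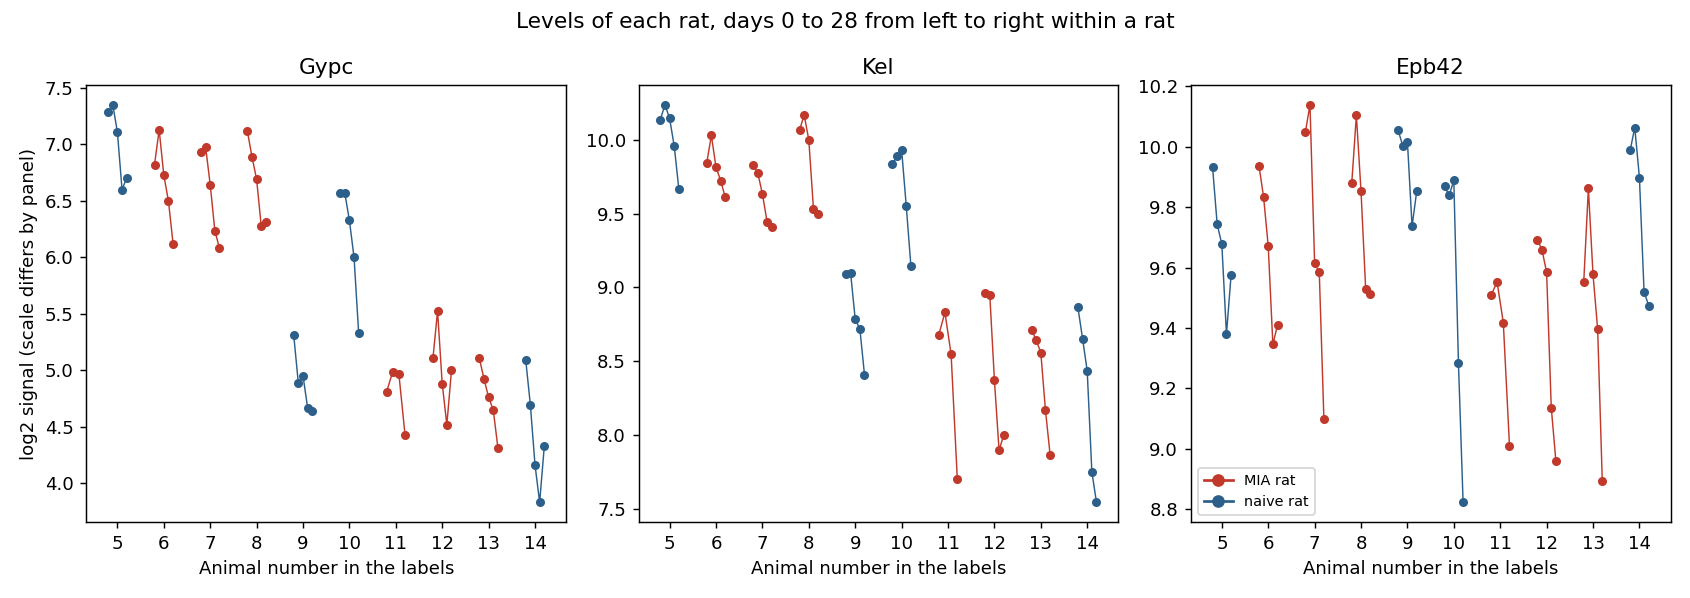
Log2 signal (y axis, own scale per panel) of Gypc, Kel and Epb42 on each array, set out by the animal number in the labels (x axis), with days 0 to 28 from left to right within a rat (MIA red, naive blue). Animals 5 to 8 and 10 lie above the others for Kel and, apart from animal 10 at day 28, for Gypc, and no such gap is seen for Epb42.

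Rhag did not follow the split fully. Its rat means ran from 5.67 to 7.32, and its widest gap, 0.61, set MIA replicates 5 and 6 and naive replicate 4 below the other 7 rats. Epb42 had rat means of 9.37 to 9.93 and Slc4a1 of 11.13 to 11.40. The widest gaps of Epb42 and Slc4a1, 0.14 and 0.08, each set a single rat apart.

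Pairs of members were alike in different ways across the 49 arrays, which came from 10 rats. With group means removed, Pearson's r was 0.96 for Kel and Gypc and 0.80 for Rhag with either. Pairs with Slc4a1 or Epb42 had r of 0.23 to 0.44. With the mean of each rat removed instead, so that the days remained, all 10 pairs had r of 0.72 to 0.84. With both removed, r ran from −0.10 to 0.43.

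The genes whose signals were most like the mean of the 5 members were led by Slc6a9, a glycine transporter, with r = 0.97 over the 49 arrays. This r holds the levels of the rats as well as the days. The mean was not scaled, so Gypc, Kel and Rhag weighed most in it. Their SD between rats was 1.00, 0.72 and 0.58, against 0.16 for Epb42 and 0.07 for Slc4a1. Als2cl, Fam53b, Slc43a1, Ppp1r15a, Trak2, Cdkl1, Nedd4l, Trim10 and Apol2 followed, with r of 0.92 to 0.95. Slc6a9 also led with group means removed (r = 0.98), before Tpx2, Fam53b, Als2cl, Cdkl1, Tmcc2, Slc43a1, Trim10, Fam111a and Xpo7. In these lists the share of variance between rats was 88.2% (Trim10) to 98.1% (Xpo7). With rat means removed, so that the days remained, Slc6a9 was not among the leading genes, which had r of 0.94 to 0.96. They were Slc3a2, Tinagl1, Fam220a, Cmpk2, Trim10, Tom1l1, Stradb, Clic2, Slc16a10 and Marchf8. Trim10, a gene of the precursor list, was the only name in all 3 lists. The r values are descriptions of arrays that share rats and days.

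In a list of other red cell membrane genes, calls went in both directions at day 28. Of 28 listed, 15 were measured, and at day 28 over all rats 6 were lower and 2 higher between group means, and 8 lower and 2 higher within rats, with a median of −0.33. Over all probe sets the median was −0.02, and 7.37% were called higher between group means and 8.90% within rats. Called lower were 4.58% between group means and 5.42% within rats. Tmod1, which caps actin filaments of the skeleton, fell by 0.69 (adjusted p = 0.000498 from limma, group means). Icam4, an adhesion protein of red cells, fell by 0.76 at a mean level of 3.70. Aqp1, the water channel, fell by 0.48, and Rhd, a Rh protein, by 0.48. Tpm3, a tropomyosin made in many cell types, rose by 0.52, and Slc2a1, the glucose transporter GLUT1, rose by 0.47 at a mean level of 4.19. After group means were removed, 29.2% of the variance of Tpm3, 12.0% of that of Slc2a1 and 38.4% of that of Icam4 lay between rats. For Tmod1, Aqp1 and Rhd it was 67.7% to 72.9%. The median of the list was 62.2%. Which blood cells gave the signals of Tpm3 and Slc2a1 was not tested. Close copies within a family such as Rhd can share signal on a probe set.

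Relatives of the listed genes that work mainly outside red cells were measured on the same arrays. Of 18 listed, 7 were measured, and 5 of these had mean levels above the median of all probe sets, 2.26. Epb41l1 (2.76), Epb41l5 (3.28) and Rhbg (3.35) lay near that median, and Sptan1 (5.76) and Add3 (7.12) well above it. Rhcg (1.79) and Slc4a3 lay under it, so most of the 7 were read near the low end of the signals. At day 28 over all rats none was called lower, against 4.58% of probe sets (group means) and 5.42% (within rats). At an unadjusted p under 0.05, 2 were lower between group means and 1 within rats. Add3, gamma adducin, rose by 0.44 (adjusted p = 0.0107 from limma). Sptan1, the spectrin chain of non-erythroid cells, had a difference of 0.31 that was called within rats (adjusted p = 0.00842) but not between group means (adjusted p = 0.0594). Against 1.87% of probe sets (group means) and 3.18% (within rats), 1 of the 7 was called lower at MIA day 28 in both models. This was Slc4a3, an anion exchanger, with a difference of −0.60 (adjusted p = 0.0399 between group means and 0.0393 within rats, from limma), and its mean level of 2.20 lay under the array median of 2.26. The median of the 7 genes at day 28 was −0.21 over all rats, 0.03 in MIA rats and −0.03 in naive rats.

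Most measured genes of red cell precursors were lower too. Of 22 listed, 18 were measured, and 11 were lower at day 28 over all rats between group means and 17 within rats. None was higher, and the median was −0.53. Of all probe sets, 4.58% were called lower between group means and 5.42% within rats. Slc25a37, the mitochondrial iron importer, fell by 0.91, Klf1 by 0.83, Tfrc, the transferrin receptor, by 0.81, Slc25a39 by 0.61, Ube2o, a ubiquitin ligase of reticulocytes, by 0.55 and Bnip3l, which directs the removal of mitochondria, by 0.25. The mean level of the list ran from 8.71 to 9.31 in MIA rats at day 0 and from 8.07 to 8.78 at day 28. In naive rats it ran from 8.66 to 9.19 and from 8.11 to 8.83.

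The 6 measured globin genes of 12 listed had a median of −0.33 at day 28 over all rats. Called lower were 1 between group means (Hba-a1, −0.28) and 3 within rats (Hba-a1, Hbe1 and Hbq1). The background was 4.58% of all probe sets between group means and 5.42% within rats. At an unadjusted p under 0.05, 5 of 6 were lower and 0 higher in both models. Hbb-b1, a beta globin, differed by −0.11 and was not called (adjusted p = 0.125). Its mean level was 12.14 and that of Hba-a3 12.29, where the highest signal of any probe set was 12.25 to 12.47 on the 49 arrays, so their changes and spread were read at the top of the measured range. Slc4a1, at a mean of 11.28, lay below that top, but its level was higher than that of 99.8% of probe sets. Whether its fall and spread were compressed was not tested.

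The share of variance between rats in the median gene was 91.6% for the membrane members and 62.2% for the other red cell membrane genes. It was 64.4% for precursor genes, 21.7% for globins, 76.4% for platelet genes and 73.3% for neutrophil genes. In the mean of each red cell list, animals 5 to 8 and 10 lay above the other 5 rats, as they did for Gypc and Kel, with the narrowest margin in the other membrane genes (0.03 in animal 10 and 0.003 in animal 9, as deviations from the group means). These shares and orders were not tested against each other.

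Several lists of white cell genes were higher at the same time. Of all probe sets, 7.37% were called higher at day 28 over all rats between group means and 8.90% within rats. At day 28 over all rats, 5 of 10 neutrophil genes were higher between group means and 8 within rats (median 0.67; Cxcr2 1.24, Csf3r 1.03, Retnlg 1.08). Of 7 genes of NK and cytotoxic cells, 6 were higher in both models (median 0.88; Gzma 1.36, Ncr1 1.10, Prf1 0.93). For T cells it was 2 of 8 between group means and 5 within rats (median 0.38), and for monocytes 3 of 6 in both (median 0.39). For B cells it was 0 of 3 and 1 of 3 (median 0.20), and no platelet gene of 6 was called in either model (median 0.02, 1 at an unadjusted p under 0.05).

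In levels, the mean of the NK and cytotoxic genes ran from 3.67 to 4.39 over the 10 rats at day 0 and from 4.61 to 5.40 at day 28, without overlap. The neutrophil mean ran from 5.27 to 6.70 and from 6.14 to 7.20, the T cell mean from 6.00 to 6.81 and from 6.53 to 7.13, and the monocyte mean from 6.44 to 7.05 and from 6.99 to 7.42. The B cell mean (5.96 to 6.91, then 6.11 to 7.34) and the platelet mean (8.33 to 9.24, then 8.27 to 9.34) overlapped widely. Of the genes of the blood cell lists, Hbg1 and Klrb1 alone had mean levels under the median of all probe sets, 2.26. The arrays had been quantile normalized before deposit, but their medians still ran from 2.12 to 2.38. The part of the white cell genes in the falls of the membrane genes was not tested.

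**Figure D5:**
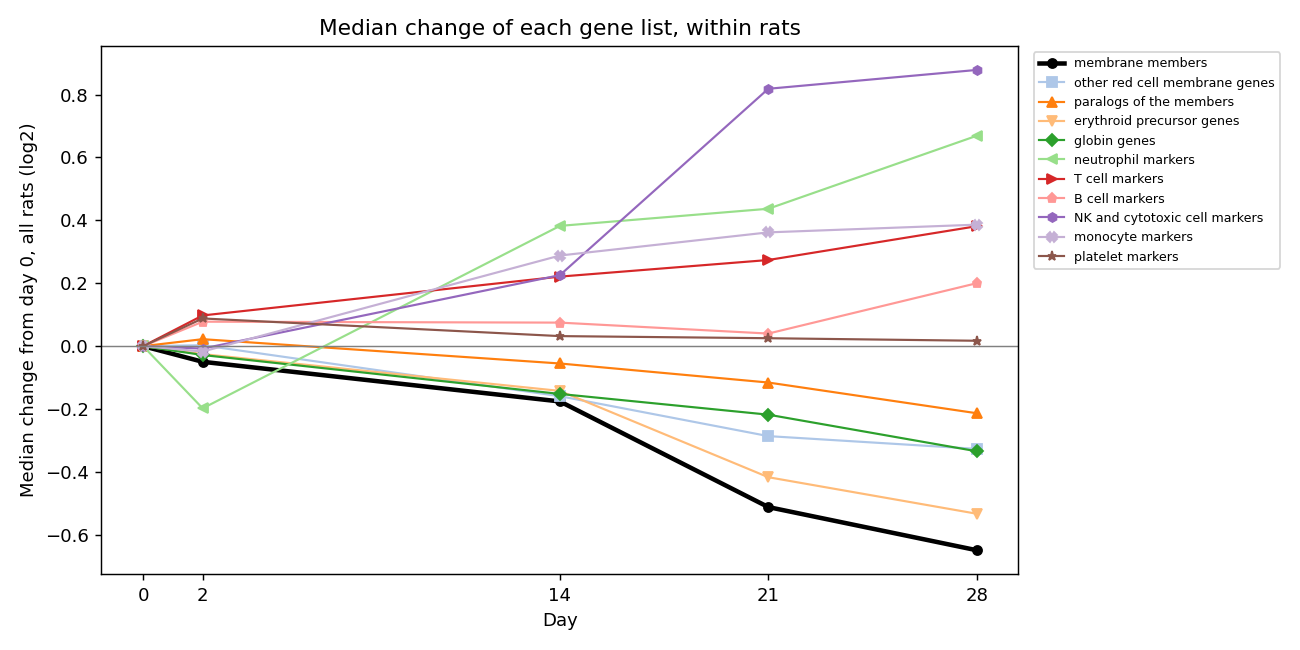
Median change from day 0 within rats (y axis, log2, average of the treatments) of each gene list against the day (x axis), with the 5 membrane members in black and day 0 set to 0. The members reach −0.65 at day 28, next to precursor genes at −0.53, while NK and cytotoxic genes reach 0.88 and neutrophil genes 0.67.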

How the data were processed

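Whole blood RNA of 10 rats was measured on 50 rat gene expression arrays, 1 per blood sample. Before deposit, the authors removed background, applied quantile normalization and took logarithms, so the values are log2 signals of probe sets. In the submitters' processing notes oligo 1.36.1 is named, and the step from probes to probe sets is not given in the sources used here. Symbols came from the platform table, in which 14824 probe sets have 1 symbol, 829 several and 21032 are unnamed here.

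The 49 arrays were modelled in limma 3.58.1 (R 4.3.3). Each combination of treatment and day had a mean of its own, and p-values were adjusted by Benjamini-Hochberg over 36685 probe sets at 0.05. Figures used matplotlib 3.10.9. Arrays with the same replicate number in a treatment are 1 rat, since the labels give each rat an animal number, so a second model held the rat as a fixed term. Replicates are rats. Tests were two-sided, and intervals are at 95%. The number of arrays limits the precision. The members, lists and tests were chosen with earlier results of these data known. Genes of other lists are named by their smallest p at day 28 over all rats, up to 6 per list and up to 3 for cell types, and Hbb-b1, Hbe1, Hbq1 and Sptan1 also as members of small counts. Genes most like the members are the 10 with the highest Pearson's r to their mean. The fits were run on simulated data with changes planted at MIA day 28. These were larger than the mean falls of the members, so the recovery of falls of that size was not tested. The alternatives were all 50 arrays, the rat as a block, no dim probe sets, a shift to the same median, another variance prior, array weights, fits within a treatment and leaving out each rat.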

Additional observations from a re-analysis of the deposited data

Results flagged for a closer look

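In 90 groups of 4 to 6 values of the 5 membrane genes (levels and changes from day 0), 2 held a rat far from the others. Chance flags about 1 in 20 groups. Slc4a1 in naive replicate 4 at day 2 read 11.26, where the other 3 naive rats read 11.42 to 11.45. Kel in MIA replicate 5 at day 14 had changed by −0.59 from its day 0, where the other 5 MIA rats had changed by −0.20 to −0.03.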

How the results depend on the processing

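No called value reversed its direction. Between group means, with all 50 arrays 0 members were called in any comparison of day 21 or 28, with the rat as a random replicate block or without it, and the median member change became −1.52 at MIA day 21, −1.04 for the MIA minus naive change at day 21 and −1.003 at day 21 over all rats. Within rats, all 50 arrays gave 2 members called at MIA day 21, 0 at MIA day 28, 0 at naive days 21 and 28, 2 at day 21 and 1 at day 28 over all rats, and 0 from day 14 to day 28, with the same medians of −1.52, −1.04 and −1.003. With the rat as a fixed replicate block, 5 members were called at days 21 and 28 in each treatment and over all rats, 4 from day 14 to day 28, and the median at MIA day 21 was −0.54. The random replicate block on 49 arrays gave 2 at naive day 28, as did leaving out dim probe sets (correlation within rats 0.0319 on average over probe sets). Arrays shifted to the same median gave 0 at MIA day 21 and at naive day 21, and 2 within rats at naive day 21. Fits within a treatment gave 0 at naive days 21 and 28. Array weights moved the median at day 2 to 0.0016 in MIA rats and to −0.11 over all rats. The causes were not tested.

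Leaving out each rat gave 0 to 1 members at MIA day 21 and at naive days 21 and 28 between group means, and 1 to 2 from day 14 to day 28. Slc4a1 was lost at naive days 21 and 28 without naive replicate 1, 3 or 4, and from day 14 to day 28 the lowest count came without MIA replicate 6 or naive replicate 3 or 4. Within rats it was 2 to 5 at MIA day 21, 2 to 5 at naive day 21, 3 to 5 at naive day 28 and 3 to 4 from day 14 to day 28. Medians ran from −0.53 to −0.32 at MIA day 21 (−0.60 to −0.41 within rats), from −0.0039 to 0.090 for the treatment difference at day 2 and from −0.11 to 0.12 at day 28. Over all settings the probe sets called between group means ran from 24 to 984 at MIA day 21 (244 as reported), 4 to 4055 at MIA day 28 (1564), 0 to 678 at naive day 21 (122) and 2 to 1684 at naive day 28 (750), 405 to 3369 at day 21 (1845) and 591 to 5808 at day 28 (4386) over all rats and 1 to 1021 from day 14 to day 28 (343). Within rats they ran from 393 to 2211 at MIA day 21 (984), 127 to 5559 at MIA day 28 (2780), 7 to 965 at naive day 21 (678), 47 to 2083 at naive day 28 (1684), 874 to 5152 at day 21 (2704) and 993 to 6825 at day 28 (5255) over all rats and 7 to 1831 from day 14 to day 28 (1021). Of 1175 comparisons of single members with a setting, 1044 kept their side of the threshold.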
